A study of Mus musculus with 8 samples.

Results

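The genes described here encode the nuclear pore, the carriers that move cargo through it and the Ran GTPase cycle that gives this traffic its direction. They were chosen by name: every gene whose only symbol in the platform annotation starts with Nup, Xpo or Ipo and a digit, or with Kpna, Kpnb, Tnpo or Ranbp, together with Rangap1, Ran and Rcc1, and without Xpo5. This gave 51 of 18193 genes on the array, each read by the probe set with the highest mean over the 8 arrays. The samples were germinal vesicle-intact, fully grown oocytes of female mice of strain 129/C57BL6 that had received eCG, a hormone that makes follicles grow, and cumulus cells had been stripped off with a pipette. There were 4 Dicer knockout mice and 4 wild-type mice, with 20 oocytes and 1 Affymetrix array per mouse. The driver of the deletion, the deleted exons and the age of the mice are not given in the labels.

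Traffic between nucleus and cytoplasm passes through pores built from nucleoporins, which are arranged in a Y complex, an inner ring, a central channel, a nuclear basket and cytoplasmic filaments. Importins carry cargo in and release it when Ran-GTP binds them in the nucleus, while exportins bind cargo together with Ran-GTP and release it outside. Rcc1 loads Ran with GTP on chromatin, and Rangap1 makes Ran hydrolyse it in the cytoplasm. In fully grown mouse oocytes most transcripts were made earlier and are stored, and at meiotic resumption the large nucleus breaks down and Ran-GTP near the chromosomes helps to build the spindle. Dicer cuts microRNAs and short interfering RNAs (siRNAs), and Rangap1 has been reported among the genes whose transcript matches siRNAs of mouse oocytes, formed with RNA of a related pseudogene.

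The upstream regions of Rangap1, Ran and Kpnb1 are shown because these genes carried the largest rise of the Ran cycle (Rangap1), the rise of the GTPase itself (Ran) and the largest fall among the transport carriers (Kpnb1). Each runs from 250 bases before to 50 bases after the gene's start in RefSeq on build GRCm38.p6, 5′ to 3′ on the gene's own strand. Capitals mark 4 short motifs on either strand: the CCAAT box with the letters CCAAT, the GC box with GGGCGG, the E box with CACGTG and the TATA box with TATAAA. No 2 matches overlapped in these windows. The windows lie at chr15:81729870-81730169 (minus strand) for Rangap1, chr5:129019906-129020205 (plus strand) for Ran and chr11:97187843-97188142 (minus strand) for Kpnb1.
Rangap1: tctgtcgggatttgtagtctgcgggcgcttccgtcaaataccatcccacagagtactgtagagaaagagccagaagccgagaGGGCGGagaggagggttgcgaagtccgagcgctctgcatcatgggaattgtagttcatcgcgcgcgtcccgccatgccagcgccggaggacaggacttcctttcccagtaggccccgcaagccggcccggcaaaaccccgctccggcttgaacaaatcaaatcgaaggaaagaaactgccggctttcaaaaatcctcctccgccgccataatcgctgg
Ran: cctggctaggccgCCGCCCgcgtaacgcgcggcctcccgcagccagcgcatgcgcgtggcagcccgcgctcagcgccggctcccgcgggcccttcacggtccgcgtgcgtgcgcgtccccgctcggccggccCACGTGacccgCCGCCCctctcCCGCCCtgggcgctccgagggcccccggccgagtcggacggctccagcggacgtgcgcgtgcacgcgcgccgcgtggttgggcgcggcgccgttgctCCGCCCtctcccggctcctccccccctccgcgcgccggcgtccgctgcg
Kpnb1: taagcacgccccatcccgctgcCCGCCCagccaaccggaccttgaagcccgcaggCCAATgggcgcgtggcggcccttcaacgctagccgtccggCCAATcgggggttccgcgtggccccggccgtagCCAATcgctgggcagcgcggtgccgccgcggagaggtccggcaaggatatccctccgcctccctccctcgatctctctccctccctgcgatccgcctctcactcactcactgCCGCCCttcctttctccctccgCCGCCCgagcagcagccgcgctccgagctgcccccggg

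The Rangap1 window held 1 GGGCGG match and 26 CG dinucleotides. The Ran window held 4 GGGCGG matches, 1 CACGTG match and 58 CG dinucleotides, and the Kpnb1 window held 3 CCAAT matches, 3 GGGCGG matches and 35 CG dinucleotides. RefSeq windows were listed for 41 of the 51 genes, 48 windows in all, with a median of 27.5 CG dinucleotides against 7 over all 32851 windows of the table. GGGCGG stood in 64.6% of the members' windows and in 35.7% of all windows, CCAAT in 47.9% and 37.4%, CACGTG in 16.7% and 7.15%, and TATAAA in 10.4% and 13.6%. All windows of the table were used for comparison, without matching them to the members by signal on the array or any other property. The letters are a description of these windows and were not set against the expression changes.

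The median log2 signals of the arrays lay between 6.35 and 6.43. The submitters' notes name RMA, a method that equalises the arrays, so these medians do not measure depth of signal. Pairs of arrays correlated at r = 0.9915 to 0.9947 within groups and 0.9797 to 0.9865 between them across probe sets, with 4 arrays per group setting the precision. Dicer1 read higher on the knockout arrays (14.26 to 14.36, against 13.04 to 13.31 on the wild-type arrays, for its brighter probe set), and since the deleted exons are not given, this does not check the genotype. Of 17 oocyte markers measured, 1 rose and 6 fell, and their mean level per array was 13.10 to 13.17 in knockout and 13.16 to 13.29 in wild-type oocytes. Of 20 markers of cumulus and granulosa cells, 0 rose and 9 fell, with mean levels of 7.17 to 7.56 in knockout and 7.65 to 7.96 in wild-type samples. Of 14 markers of vessel, blood, stroma and theca cells, 1 rose and 2 fell (6.18 to 6.36 in knockout, 6.24 to 6.38 in wild-type samples). Over all genes, 8.18% rose and 12.8% fell. The part of the granulosa difference in the values below was not tested, and in such pooled samples fewer cells of a type and less RNA per cell cannot be told apart. The 3′ minus 5′ signal of the control probe sets was 2.14 ± 0.145 in knockout and 2.32 ± 0.274 in wild-type samples for actin, and 2.82 ± 0.153 and 2.96 ± 0.0817 for Gapdh (log2, SD, n = 4 each, exact two-sided permutation p = 0.257 and 0.143, both 0.257 after Benjamini-Hochberg adjustment).

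Of the 51 genes, 7 were higher and 5 lower in Dicer knockout oocytes. The 7 that rose were Rangap1, Ran, the importins Ipo5 and Ipo7, and the nucleoporins Nup43, Nup155 and Nup188. The 5 that fell were the importin Kpnb1, the exportin Xpo6, the nucleoporins Nup133 and Nup153, and Ranbp9. The test was limma on the log2 signals of all 45037 non-control probe sets, and a gene was called when its Benjamini-Hochberg adjusted p was under 0.05. The 12 called genes make up 23.5% of the members, and 21.0% of all genes were called. In single directions, 13.7% of the members rose against 8.18% of all genes, and 9.80% fell against 12.8% of all genes. The share of called genes was thus near that of the array as a whole. The median log2 difference of the members was -0.02, against 0.00267 over all genes, and 24 members had a positive and 27 a negative sign. In the brightest probe sets, only Rangap1 changed by 2-fold or more.

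In 16 of the 51 members (31.4%) the 4 knockout values lay entirely on one side of the 4 wild-type values, which was so in 26.2% of all genes. Among them were 10 of the 12 called members, Ran and Ipo7 being the exceptions. The other 6 were Nup85, Nup160, Ranbp17, Kpna2, Ipo8 and Tnpo1. The called members lie on 9 chromosomes. Rangap1 and Nup155 are on chromosome 15, Ipo7 and Xpo6 on 7, Nup153 and Ranbp9 on 13, and Ran, Ipo5, Nup43, Nup188, Kpnb1 and Nup133 on 5, 14, 10, 2, 11 and 8.

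**Figure D1:**
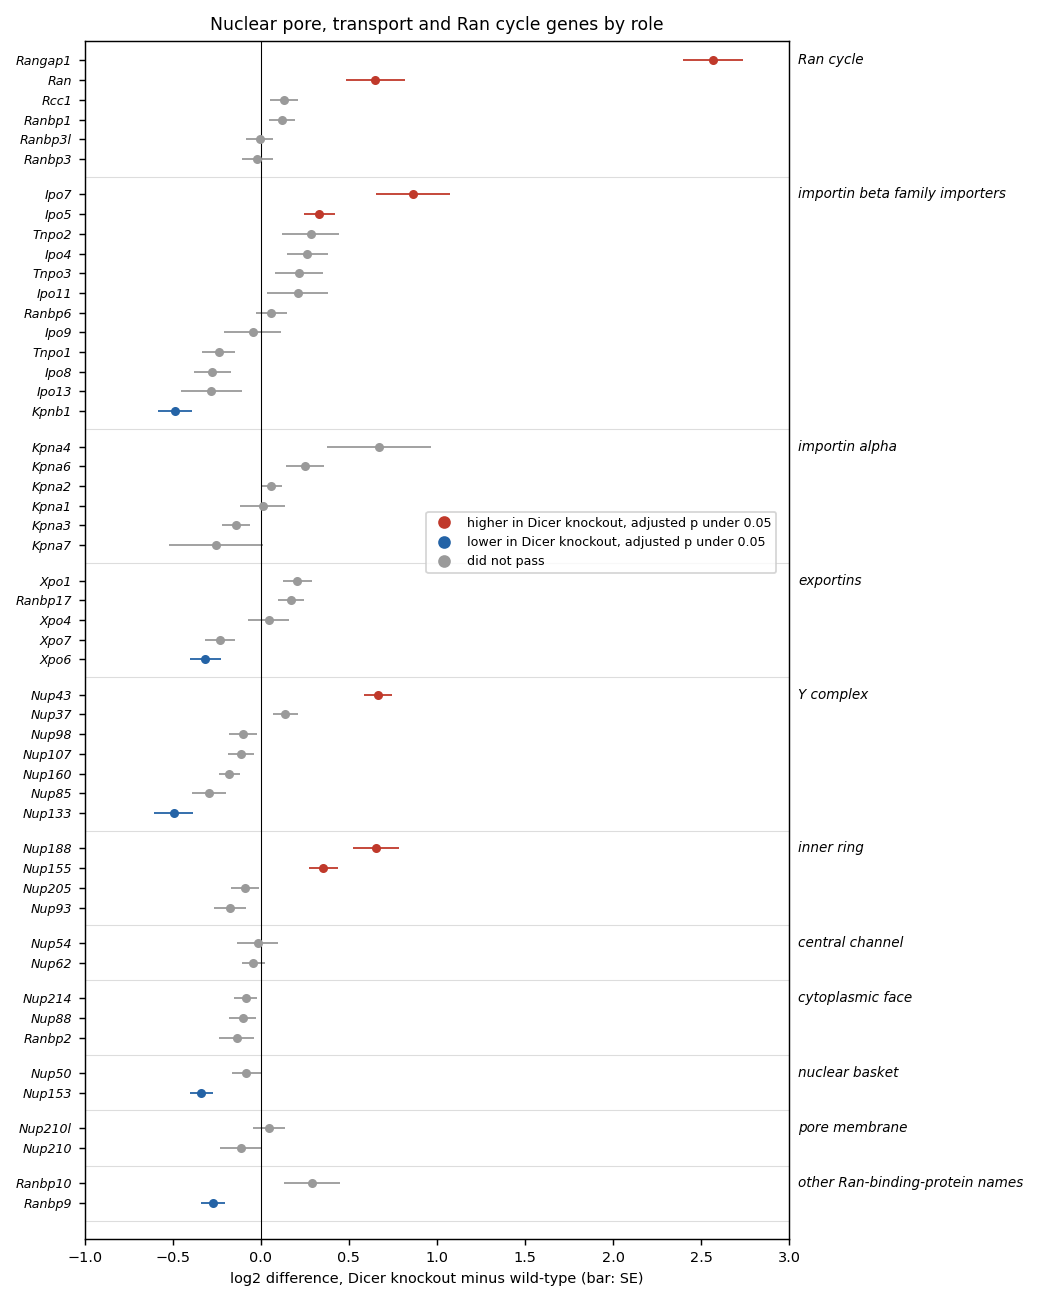
Log2 difference, Dicer knockout minus wild-type, of each of the 51 genes, grouped by role, with bars for the moderated SE (4 arrays per group). Rangap1 lies at 2.57, far from the other genes, which lie between -0.50 and 0.87. Genes that rose and genes that fell stand in the same role group among importers and in the Y complex.

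The Ran cycle held the largest change. Rangap1, which makes Ran hydrolyse GTP at the outer face of the pore, read 11.10, 11.19, 11.11 and 10.93 on the knockout arrays, against 9.07, 8.48, 8.33 and 8.17 on the wild-type arrays (log2 signal). All knockout arrays were above all wild-type arrays, and wild-type array 1 was the highest of its group. The means were 11.08 ± 0.108 in knockout and 8.52 ± 0.393 in wild-type oocytes (SD, n = 4 each), a log2 difference of 2.57 ± 0.172 (SE) or 5.92-fold (limma adjusted p = 2.29e-05, exact two-sided permutation p = 0.0286, the smallest that 4 against 4 arrays can give).

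Rangap1 has 3 probe sets on the array. The second read 9.97, 9.97, 10.04 and 9.70 in knockout and 8.19, 7.93, 7.74 and 7.98 in wild-type oocytes, again without overlap, a log2 difference of 1.96 ± 0.111 (3.88-fold, limma adjusted p = 1.04e-05). The remaining one read 6.64, 6.85, 6.85 and 6.84 in knockout and 6.51, 6.69, 6.50 and 6.56 in wild-type oocytes, with overlapping groups, and did not pass (log2 difference 0.23, adjusted p = 0.0856). The first and second carry suffixes that the manufacturer gives to probe sets shared by several transcripts, and the remaining one does not. The call thus rests on probe sets with such suffixes. The suffix is a in the first and s in the second, and both were treated alike here. Whether the signal includes RNA of the related pseudogene was not tested.

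Ran, the small GTPase itself, read 13.22, 12.89, 13.17 and 13.39 in knockout and 12.96, 12.46, 12.52 and 12.14 in wild-type oocytes. The groups overlapped, because wild-type array 1 exceeded knockout array 2. The log2 difference was 0.65 ± 0.167 (1.57-fold, limma adjusted p = 0.0262). The call ended without any one of wild-type arrays 2, 3 and 4 or knockout arrays 1, 3 and 4, with adjusted p up to 0.0707. Over all 8 omissions the log2 difference lay between 0.52 and 0.80.

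Of the 6 Ran probe sets, 4 rose and 0 fell. The other probe sets that share sequence with further transcripts gave log2 differences of 0.67, 0.69 and 0.72, of which the last did not pass (adjusted p = 0.0541), and a dim one gave 0.26. The single probe set without such a suffix read 8.81, 8.41, 8.53 and 9.07 in knockout and 7.90, 7.19, 7.22 and 7.39 in wild-type oocytes. There the groups did not overlap, and the log2 difference was 1.28 ± 0.184 (2.43-fold, limma adjusted p = 0.00141).

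**Figure D2:**
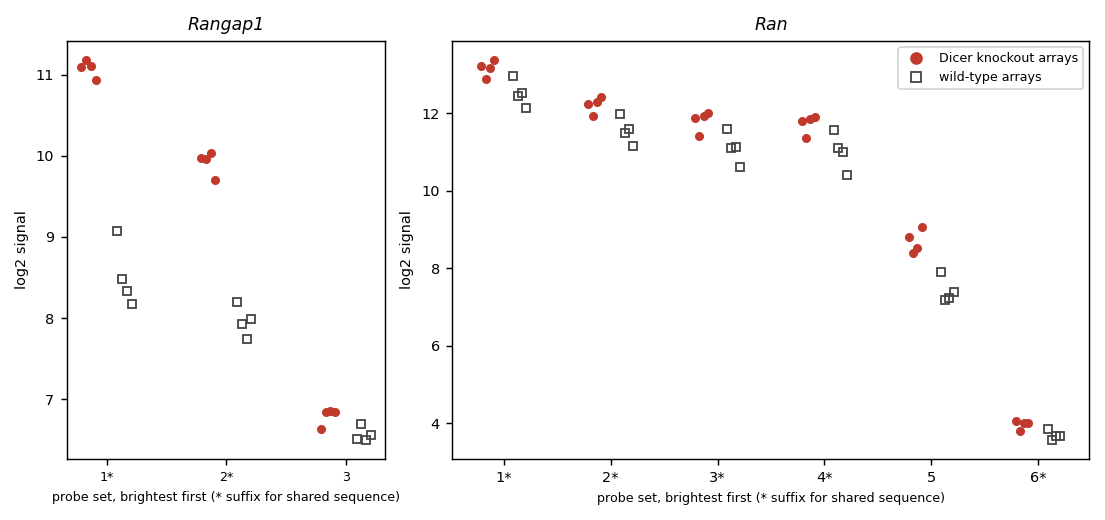
Log2 signal on each array for the 3 Rangap1 and 6 Ran probe sets, with Dicer knockout arrays as filled circles left of wild-type arrays as open squares. The groups stand apart in the first and second Rangap1 probe sets and in the fifth Ran probe set, and overlap in the others.

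The remaining genes of the cycle did not pass. Rcc1, the exchange factor that loads Ran with GTP, read 9.66, 9.79, 9.51 and 9.57 in knockout and 9.59, 9.43, 9.49 and 9.51 in wild-type oocytes (log2 difference 0.13, limma adjusted p = 0.328, 1 probe set). Ranbp1, which helps Rangap1 to act on Ran-GTP, had a log2 difference of 0.12. Ranbp3, a cofactor of the exportin Xpo1, had -0.02 in its brightest probe set, while 1 of its 2 other probe sets rose by 0.32. The related gene Ranbp3l had -0.01. Of the 6 genes of the cycle, Rangap1 and Ran were thus the 2 that passed.

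Importers of the importin beta family went both ways, 2 of 12 higher and 1 lower. Kpnb1, importin beta 1, which carries importin alpha and its cargo through the pore, read 12.02, 11.87, 11.82 and 11.64 in knockout and 12.18, 12.33, 12.33 and 12.45 in wild-type oocytes. All knockout arrays were below all wild-type arrays, and the log2 difference was -0.49 ± 0.0959 (limma adjusted p = 0.00751), or 1.40-fold lower. A pair of dimmer Kpnb1 probe sets fell as well, by 0.31 and 0.64 on the log2 scale (adjusted p = 0.0431 and 0.0125). The remaining probe set, of a kind that can cross-hybridise, did not pass (-0.17, adjusted p = 0.681), and wild-type array 4 stood low in it at 10.73 against 11.67 to 11.87 on the other wild-type arrays.

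Ipo7, which imports ribosomal proteins and, together with importin beta, histone H1, read 10.10, 9.14, 9.66 and 9.91 in knockout and 9.16, 8.88, 8.45 and 8.85 in wild-type oocytes. Knockout array 2 lay just below wild-type array 1, and the other knockout arrays lay above all wild-type arrays. The log2 difference was 0.87 ± 0.21 (1.82-fold, limma adjusted p = 0.0207). The call ended without wild-type array 3 or 4 or knockout array 1 or 4 (adjusted p up to 0.0572), and with the mean over its 3 probe sets (log2 difference 0.25), the other probe sets being dim at 3.82 to 4.33 on all arrays.

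Ipo5, an importer of histones and ribosomal proteins, read 11.21, 11.00, 11.23 and 11.11 in knockout and 10.87, 10.94, 10.68 and 10.73 in wild-type oocytes. The groups were separate but close, with a log2 difference of 0.33 ± 0.0878 (1.26-fold, limma adjusted p = 0.03). The call of this probe set ended without wild-type array 3 or 4 or knockout array 1, 3 or 4 (adjusted p up to 0.0799). A second probe set rose more clearly, with 10.53, 10.77, 10.50 and 10.57 in knockout and 9.97, 10.06, 9.91 and 10.24 in wild-type oocytes (log2 difference 0.55 ± 0.0957, adjusted p = 0.00415).

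The other 9 importers did not pass in their brightest probe set. Tnpo2 had a log2 difference of 0.28, Ipo4 of 0.26, Tnpo3, the carrier of SR splicing proteins, of 0.22, Ipo11 of 0.21, Ranbp6 of 0.06 and Ipo9 of -0.04. Tnpo1, the carrier of many RNA-binding proteins, had -0.24, and Ipo8, the nearest relative of Ipo7, had -0.28, as had Ipo13. Ipo8 and Tnpo1 were each lower on all 4 knockout arrays than on any wild-type array, with adjusted p of 0.115 and 0.125.

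None of the 6 importin alpha genes, the adaptors that recognise the classical nuclear localisation signal, passed in its brightest probe set (limma, 1 of 6 with groups that do not overlap). Kpna2 was very even, at 13.99, 14.00, 14.02 and 13.99 in knockout and 13.91, 13.95, 13.96 and 13.94 in wild-type oocytes. Its groups did not overlap, but the log2 difference was 0.06 ± 0.0597 (adjusted p = 0.583). Kpna7, an importin alpha of oocytes and early embryos, spread widely within both groups, at 12.51, 12.22, 11.44 and 12.25 in knockout and 12.38, 12.18, 11.89 and 12.99 in wild-type oocytes (log2 difference -0.25 ± 0.267, adjusted p = 0.596). Each of these genes has 1 probe set.

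Kpna4 had the largest difference among the members that did not pass. It read 6.70, 5.65, 5.91 and 6.84 in knockout and 6.26, 5.46, 5.35 and 5.34 in wild-type oocytes, a log2 difference of 0.67 ± 0.295 (limma adjusted p = 0.169). The groups overlapped through wild-type array 1, which was far above the other wild-type arrays, and knockout arrays 1 and 4 were the highest of all. Kpna6, Kpna1 and Kpna3 had log2 differences of 0.25, 0.01 and -0.14. A dimmer Kpna3 probe set fell, with 10.13 to 10.30 in knockout and 10.41 to 10.70 in wild-type oocytes (-0.36 ± 0.0857, adjusted p = 0.0184).

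Among 5 exportins, Xpo6, which exports profilin with actin, fell. It read 9.67, 9.81, 9.79 and 9.54 in knockout and 9.98, 9.88, 10.05 and 10.16 in wild-type oocytes, with no overlap but a gap of under 0.1 between the nearest arrays. The log2 difference was -0.31 ± 0.0896 (limma adjusted p = 0.0406). Its only probe set carries the suffix a, for probe sets shared by several transcripts, and whether these belong to 1 gene was not tested. The call ended under quantile and cyclic loess scaling, under a trended and robust variance, and without wild-type array 1, 3 or 4 or knockout array 1, 3 or 4 (adjusted p up to 0.15 over these).

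Xpo1, the exportin of leucine-rich export signals, read 11.95, 11.90, 12.11 and 12.01 in knockout and 11.92, 11.68, 11.71 and 11.84 in wild-type oocytes (log2 difference 0.21, limma adjusted p = 0.129). Its 2 other probe sets went opposite ways. One read 11.36 to 11.65 in knockout and 11.53 to 11.86 in wild-type oocytes (-0.15, adjusted p = 0.361), and a dim one rose, with 6.10 to 6.33 in knockout and 5.53 to 6.03 in wild-type oocytes (0.47, adjusted p = 0.0206). Ranbp17, a relative of Xpo7, had a log2 difference of 0.17, and Xpo4 of 0.05. Xpo7 had -0.23 (adjusted p = 0.0989) in the brightest of its 8 probe sets, and the next fell by 0.24 (adjusted p = 0.0425).

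Within the Y complex, the scaffold of the outer rings, 1 of 7 genes rose and 1 fell. Nup43 was even within the knockout group, at 11.69, 11.78, 11.67 and 11.70 in knockout and 11.19, 10.90, 10.99 and 11.11 in wild-type oocytes. The groups lay well apart, with a log2 difference of 0.66 ± 0.0791 (1.58-fold, limma adjusted p = 0.000503). Its second probe set gave 11.64, 11.99, 11.45 and 11.63 in knockout and 11.04, 10.85, 10.92 and 11.27 in wild-type oocytes, also 0.66 on the log2 scale (adjusted p = 0.0075).

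Nup133, at the stalk end of the Y, moved the other way. It read 10.56, 10.35, 10.47 and 10.55 in knockout and 11.27, 10.97, 10.78 and 10.90 in wild-type oocytes, without overlap (log2 difference -0.50 ± 0.108, limma adjusted p = 0.0126). Of its 6 probe sets, 2 fell, the second by 0.53 (adjusted p = 0.00482), another had -0.50 and did not pass (adjusted p = 0.0874), and 3 dim ones lay between -0.05 and 0.14. Nup37 had a log2 difference of 0.14, Nup107 of -0.11, Nup160 of -0.18 and Nup85 of -0.29. Nup98, whose precursor also yields the Y complex protein Nup96, had -0.10. Dimmer probe sets of Nup85 and Nup98 fell by 0.56 and 0.45 (adjusted p = 0.0215 and 0.0479). Nup160 was lower on every knockout array (12.03 to 12.12) than on every wild-type array (12.24 to 12.28), with adjusted p = 0.0812.

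In the inner ring, 2 of 4 genes rose and 0 fell. Nup188 read 11.87, 12.02, 11.59 and 11.96 in knockout and 11.46, 10.98, 11.05 and 11.33 in wild-type oocytes, with no overlap (log2 difference 0.65 ± 0.132, limma adjusted p = 0.00865). Nup155 read 10.11, 9.99, 10.22 and 10.20 in knockout and 9.80, 9.85, 9.81 and 9.64 in wild-type oocytes, also without overlap (0.36 ± 0.0806, adjusted p = 0.0151). Its second probe set had the opposite sign and did not pass, at 9.03 to 9.45 in knockout and 9.30 to 9.45 in wild-type oocytes (-0.17, adjusted p = 0.292), and with the mean over its 3 probe sets Nup155 did not pass (0.06). Nup93 and Nup205, partners of these proteins in the ring, had log2 differences of -0.18 and -0.09.

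Nup153 of the nuclear basket fell. It read 11.53, 11.56, 11.62 and 11.52 in knockout and 11.89, 11.97, 11.87 and 11.87 in wild-type oocytes, a small but even difference of -0.34 ± 0.0642 (limma adjusted p = 0.00631). Its second probe set was also lower on all knockout arrays (10.68 to 10.77) than on any wild-type array (10.83 to 11.02), but did not pass (-0.20, adjusted p = 0.103). The mean over its 3 probe sets did not pass either (-0.14). Nup50, its partner in the basket, had -0.08.

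No gene of the central channel, the cytoplasmic face or the pore membrane passed in its brightest probe set (limma, 7 genes). Nup62 and Nup54, which line the channel with phenylalanine-glycine repeats, had log2 differences of -0.04 and -0.02, and 0 of their 10 probe sets passed. Nup214, Nup88 and Ranbp2, which anchors SUMO-modified Rangap1 at the pore, had -0.09, -0.10 and -0.14. Nup210, a membrane protein of the pore, had -0.11, and its relative Nup210l had 0.05. In all 7 genes the groups overlapped.

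Ranbp9 and Ranbp10 carry the Ran-binding-protein name but act in a ubiquitin ligase complex. Ranbp9 fell, at 12.13, 12.29, 12.26 and 12.24 in knockout and 12.53, 12.43, 12.50 and 12.55 in wild-type oocytes (log2 difference -0.27 ± 0.0686, limma adjusted p = 0.0246), and its second probe set fell by 0.34 (adjusted p = 0.0352). The first call ended under cyclic loess scaling and without wild-type array 1, 3 or 4 or knockout array 1 or 4 (adjusted p up to 0.0937). Ranbp10 had 0.29 and did not pass (adjusted p = 0.27).

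**Figure D3:**
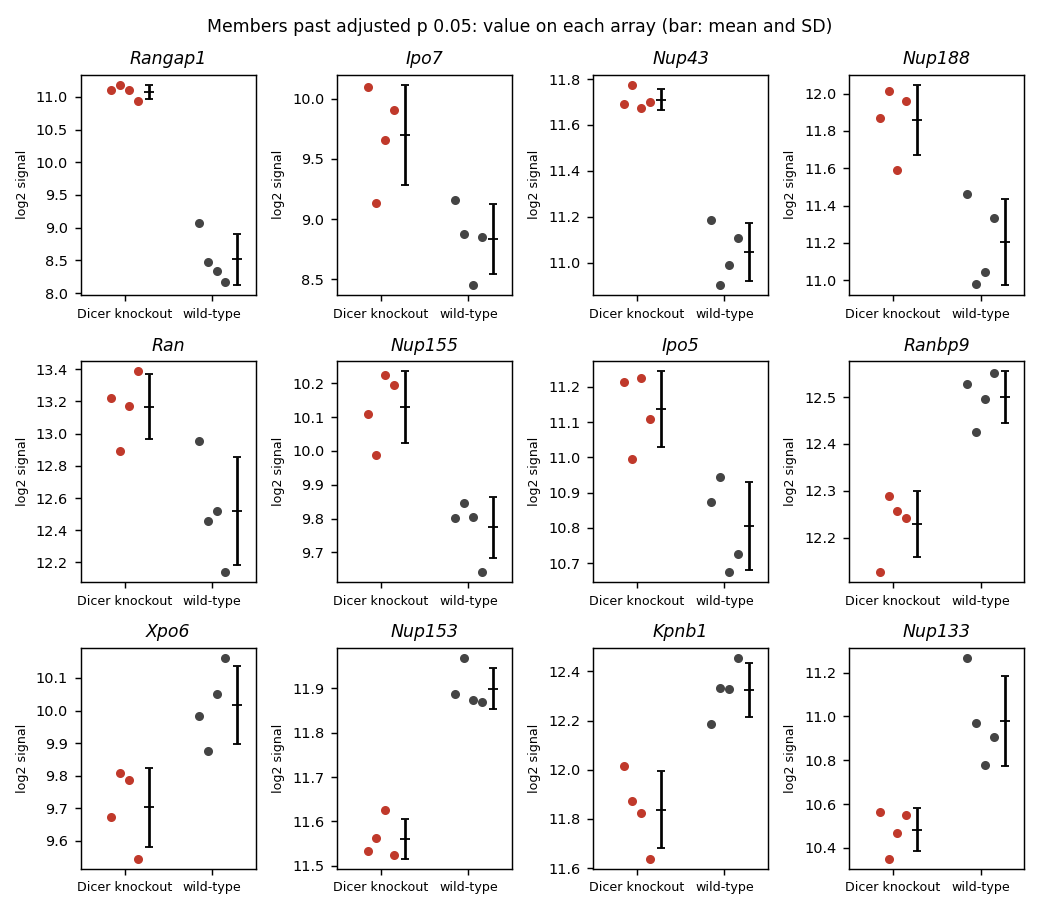
Log2 signal of the 12 called genes on each array, Dicer knockout on the left and wild-type on the right of every panel, with the mean and SD of 4 arrays beside the points. The vertical axes differ between panels and do not start at 0. The groups overlap in Ran and Ipo7 and are separate in the other 10 genes.

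Among wild-type arrays, array 1 had the highest signal in 5 of the 7 genes that rose and array 2 in the other 2. Knockout array 2 was the lowest knockout array in 4 of the 7. Without wild-type array 1 all 7 still passed, and of the 5 that fell, Ranbp9 and Xpo6 no longer did. The calls of Rangap1, Nup43, Nup188, Nup155, Kpnb1, Nup133 and Nup153 held whichever array was left out. Wild-type array 1 and knockout array 2 share the first number of the code in their sample titles (24). Wild-type array 2 and knockout array 4 share 27, and wild-type arrays 3 and 4 share 28. The meaning of the code is not given.

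Over all 134 probe sets of the members, 19 rose and 14 fell, together 24.6%, and 16.1% of all probe sets on the array were called. In 23 members (45.1%) some probe set passed, which was so in 26.6% of all genes, but the members have 2.63 probe sets each and all genes 1.92. In 0 members did probe sets pass in opposite directions. Another probe set passed in the same direction in 7 of the 11 called members that have more than 1, namely Rangap1, Ran, Ipo5, Kpnb1, Nup43, Nup133 and Ranbp9. In 11 members a dimmer probe set passed although the brightest did not. Over all 18193 genes, 3818 passed in the brightest probe set and 4836 in any probe set. How often a second probe set of a called gene passed was not counted over all genes.

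Among these 11, dimmer probe sets rose in 6, with log2 differences of 0.56 in Tnpo3, 0.47 in Xpo1, 0.44 in Ipo4, 0.35 in Tnpo1, 0.32 in Ranbp3 and 0.29 in Ranbp17. They fell in Nup85 (-0.56), Nup98 (-0.45), Kpna3 (-0.36), Ipo11 (-0.35) and Xpo7 (-0.24). In Tnpo1, Ranbp3 and Ipo11 the brightest probe set had the opposite sign. Those brightest probe sets did not pass (limma adjusted p = 0.125, 0.923 and 0.481), so no direction was called in them. Which transcript each probe set reads was not tested.

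**Figure D4:**
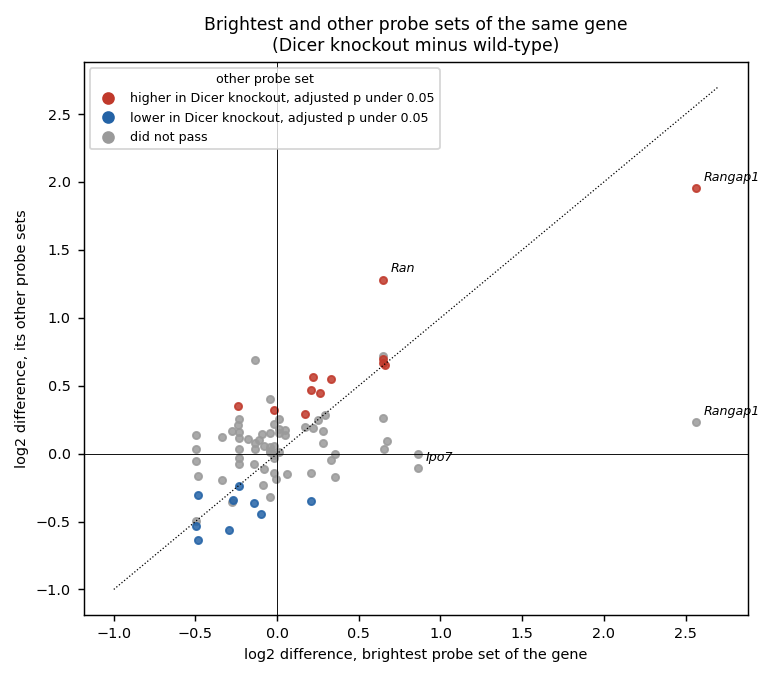
Log2 difference (Dicer knockout minus wild-type) of the brightest probe set of each gene on the horizontal axis and of its other probe sets on the vertical axis, with equality as a dotted line. Coloured points are other probe sets with adjusted p under 0.05. The other Rangap1 probe sets lie below the line at 1.96 and 0.23, one Ran probe set lies above the line at 1.28, and the dim Ipo7 probe sets lie near 0.

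Genes of the same pathway that the naming rule leaves out were read from lists written with earlier results of these data known. Over all genes, 8.18% rose and 12.8% fell. Of 21 further pore proteins and transport factors on the list, 18 were measured, of which 4 rose and 2 fell. The list median was -0.01 on the log2 scale. Phax, the adaptor that exports snRNA with Xpo1, read 12.41, 12.59, 12.51 and 12.36 in knockout and 11.22, 10.88, 10.79 and 10.91 in wild-type oocytes, with a wide gap between the groups (log2 difference 1.52 ± 0.103, 2.86-fold, limma adjusted p = 2.43e-05). Rangrf, a Ran-binding release factor, rose by 0.69, Rcc2, a relative of Rcc1, by 0.59, and the pore membrane protein Pom121 by 0.37. Ncbp2, of the cap-binding complex that Phax joins, fell by 0.64 in its brightest probe set, and all of its 3 probe sets fell. Seh1l, a further Y complex protein, fell by 0.45 in the brightest of its 7 probe sets, while another of them rose. Among the genes of this list that did not pass in the brightest probe set, 1 dimmer probe set of Ahctf1 fell and 1 of Snupn rose.

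Bulk mRNA export runs through other factors than the importin beta family. Of the listed genes, 17 of 19 were measured for mRNA export and 5 of 9 for SUMO. The shares over all genes are again 8.18% higher and 12.8% lower. Of 17 such genes 0 rose and 2 fell, both of the THO complex: Thoc2 by 0.56 and Thoc3 by 0.39 on the log2 scale (limma adjusted p = 0.00164 and 0.0309). All 3 probe sets of Thoc2 and both of Thoc3 fell. Of 5 genes of SUMO attachment and removal, the modification that ties Rangap1 to the pore, 0 passed in the brightest probe set, with log2 differences from -0.21 to 0.14 (limma), although 1 dimmer probe set of Sae1 and 2 of Senp2 rose. Of 8 spindle factors that Ran-GTP regulates, 2 rose and 0 fell in the brightest probe set, while 1 dimmer probe set each of Tpx2 and Tacc3 fell and 1 of Hmmr rose. Kifc1, a minus-end kinesin, read 12.52 to 12.75 in knockout and 10.49 to 11.06 in wild-type oocytes (log2 difference 1.91). Dlgap5, which bundles microtubules near chromosomes, read 13.13 to 13.28 in knockout and 12.42 to 12.71 in wild-type oocytes (0.65), and its second probe set fell.

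**Figure D5:**
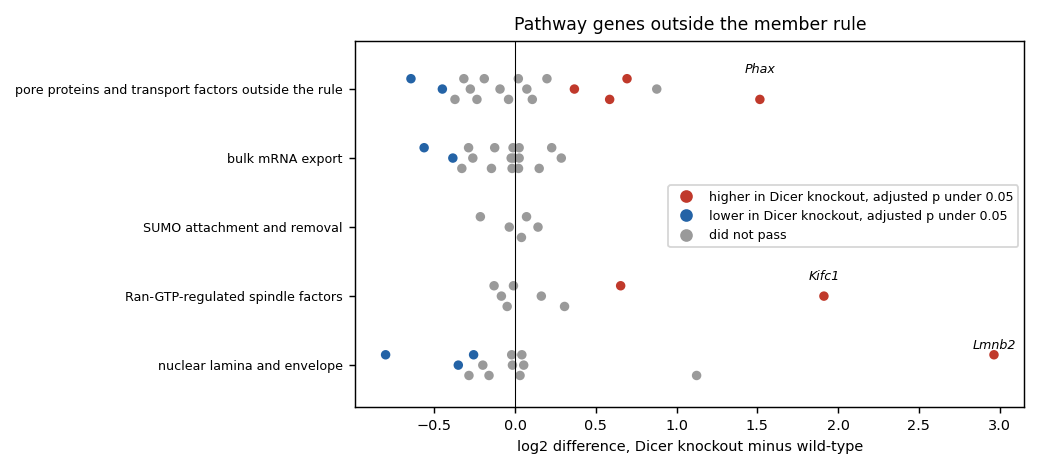
Log2 difference, Dicer knockout minus wild-type, of genes in 5 written lists of the same pathway and its neighbours, 1 point per gene, with no vertical meaning inside a list. Phax at 1.52, Kifc1 at 1.91 and Lmnb2 at 2.97 stand apart to the right, and the SUMO genes lie between -0.21 and 0.14.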

How the data were processed

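The file holds log2 signals of 45101 probe sets on 8 arrays, deposited by the authors. RMA and Partek appear in the submitters' processing notes, without version numbers; the labels' protocols state PicoPure extraction and 2 rounds of linear amplification. The scale is log2 from the values, and the centring of the software is otherwise unknown. RMA equalises the arrays, so a loss of total RNA cannot be seen, and it compresses dim signals.

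Of 45037 non-control probe sets, 34945 had 1 gene symbol, 932 several and 9160 none. All 51 members matched the RefSeq gene table (GRCm38.p6). Probe sets were fitted with limma 3.58.1 in R 4.3.3 (knockout minus wild-type, no covariates, default eBayes), with Benjamini-Hochberg adjustment over all of them. The fit was tried on simulated data in which 200 probe sets were changed. It recovered 23 of 65 changes of 0.5 log2, 66 of 71 of 1 and 64 of 64 of 2, with 8 false calls. In the data 7264 of 45037 probe sets passed, which makes the Benjamini-Hochberg cut-off less strict than in the simulation. The recovered shares therefore do not give the power of this comparison. A change of about 0.5 can still fail to pass, as in a Nup133 probe set (-0.50, limma adjusted p = 0.0874). Each mouse is 1 sample, and 0 pairs of arrays were identical. Folds are 2 to the power of the difference. The alternatives were other scalings, variance models, probe set choices, a block and leaving out each array. Every member is named; called members have their values on every array, and members with an absolute log2 difference of 0.4 or more that were not called have them too. Members and lists were chosen with earlier results of these data known. No protein sequences were used here.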

Additional observations from a re-analysis of the deposited data

Results flagged for a closer look

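In each group of 4 arrays, 1 array far from the other 3 was looked for in 102 sets of values (51 genes in each group), by the gap to its nearest neighbour over the group's range. Such an array was found in 7 sets, and chance alone flags about 5.1. None of the 7 was in a called gene. In the knockout group, Kpna3 read 12.42 on array 3 against 12.31 to 12.32 on the others, and Ranbp3l read 6.31 on array 3 against 6.11 to 6.13. In the wild-type group, array 2 was involved in 3 of the 5 sets: Ipo8 read 13.64 there against 13.21 to 13.25, Tnpo1 12.48 against 12.17 to 12.22, and Nup214 13.05 against 13.17 to 13.18. Kpna4 read 6.26 on wild-type array 1 against 5.34 to 5.46, and Nup93 read 12.55 on wild-type array 4 against 12.23 to 12.27. What set these arrays apart was not tested.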

How the results depend on the processing

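Of 12 called members, Kpnb1, Nup43 and Nup188 kept their call in all 19 alternatives. The count that rose was 7 as reported and 4 to 7 when 1 array was left out (4 without wild-type array 3 or 4 or knockout array 1 or 4). It was 8 under cyclic loess scaling, 6 without suffixed probe sets and 12 with the most variable probe set of each gene. The count that fell was 5 as reported, 3 to 5 when 1 array was left out (3 without wild-type array 1, 3 or 4 or knockout array 1 or 4) 3 under cyclic loess scaling, 4 under quantile scaling, 7 with the most variable probe set, and 6 with arrays set to one median, with a trended and robust variance or with probe sets averaged per gene. The Rangap1 call ended without suffixed probe sets, where its remaining probe set gave 0.23 (adjusted p = 0.0856), and this rule leaves 46 members with a probe set. With the most variable probe set the sign turned in 9 members, of which 2 passed, Ranbp3 (0.32) and Tnpo1 (0.35), and 7 did not, among them Ranbp2 (0.69) and Ipo9 (0.40), and Nup133 did not pass (adjusted p = 0.0874). Of the members not called, 11 passed in some alternative, Ranbp3 and Tnpo1 included. The first number of the title code, used as a random block, changed neither count. Its estimated block correlation was -0.0778, and so small a value leaves little room for a change. Fewer arrays give a weaker test; other causes were not tested. With 4 arrays per group, Ranbp9 (-0.27) was the only member called at an absolute log2 difference under 0.3.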

Other observations

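The nuclear lamina and envelope, which hold the pores, were read from a list of 13 genes, written with earlier results of these data known. Of these, 1 rose and 3 fell (limma, adjusted p under 0.05), where 8.18% of all genes rose and 12.8% fell. Lmnb2, which encodes lamin B2, read 10.65, 10.77, 10.61 and 10.40 in knockout and 8.35, 7.52, 7.21 and 7.49 in wild-type oocytes, a log2 difference of 2.97 ± 0.214 (SE) or 7.81-fold (limma adjusted p = 3.32e-05), and its other probe set rose as well. As in Rangap1, wild-type array 1 was the highest of its group. Lmna, which encodes lamins A and C, read 10.45, 9.61, 9.61 and 9.96 in knockout and 11.01, 10.85, 10.60 and 10.37 in wild-type oocytes, a log2 difference of -0.80 with overlapping groups (adjusted p = 0.024), and 4 of its 5 probe sets fell. Tmpo, a lamina-associated protein, fell by 0.26. Ankle2, which acts when the envelope reforms, fell by 0.35 in the brightest of its 3 probe sets, while the other 2 rose. Sun2 did not pass in its brightest probe set, and its other probe set rose.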
